A study of Mus musculus with 2 samples.

Results

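Upk3a-positive club cells are the club cells of 2 mouse lung libraries that held at least 2 UMIs (unique molecular identifiers, 1 per captured RNA molecule) of Upk3a. A barcode was taken as a club cell from its RNA alone. It needed at least 1000 UMIs of Scgb1a1, below 500 of Sftpc, below 150 of Scgb3a1 and Bpifb1 together and below 10 of Foxj1, Ccdc153 and Tmem212 together, all per 10000 UMIs of that barcode, and fewer than 3 UMIs of Mki67 and Top2a. These gates left 751 club cells, of which 59 passed the Upk3a threshold, out of 6983 barcodes in all. The Control library gave 16 of them from 3298 barcodes and the NAPH library 43 from 3685. The other 692 gated cells, 618 in Control and 74 in NAPH, had 0 or 1 Upk3a UMI and are called Upk3a-low club cells.

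Both libraries hold Epcam+ lung cells that were sorted by flow cytometry from adult C57BL/6 mice and made into 10x Genomics single-cell 3' libraries. The Control group is 1 library and the NAPH group is 1 library. The series title describes injury induced by NAPH. The labels do not spell NAPH out, and they give neither the dose, the time after injury, the number of animals in a library nor the handling of the Control mice. With 1 library per group no test between groups was possible. Every interval below is a 95% interval that covers counting error only, and differences between mice, between days and between library preparations are not in it.

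Club cells are the secretory cells of the bronchioles, and Scgb1a1 encodes their main secreted protein. Upk3a encodes uroplakin 3a, a membrane protein best known from the plaques on the surface of the bladder lining. In the mouse airway Upk3a marks a small set of club cells that lie near neuroepithelial bodies, the clusters of innervated neuroendocrine cells at branch points. The airway toxicant naphthalene is turned into reactive products in club cells by Cyp2f2, a cytochrome P450 enzyme. Club cells with little of this enzyme, called variant club cells, are known to survive naphthalene and to take part in rebuilding the airway lining.

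The Upk3a gene (ENSMUSG00000022435) lies on the plus strand at chr15:85017141-85022547 in GRCm38, the build also called mm10. It was the value that chose the cells, so its level is a description and supports nothing. The 16 Control cells held from 2 to 16 Upk3a UMIs each and the 43 NAPH cells from 2 to 133. Per 10000 UMIs, the lowest, median and highest Control cell had 0.451, 1.62 and 13.5, and the NAPH cells had 0.520, 4.18 and 59.5. The ranges overlapped, and every cell above 16 UMIs was a NAPH cell. Just below the threshold, 30 of 634 gated Control cells (4.73%) and 15 of 117 gated NAPH cells (12.8%) had exactly 1 Upk3a UMI.

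Upk3a-positive cells were a larger share of the club cells in NAPH than in Control. They were 16 of 634 gated club cells in Control (2.52%, exact Clopper-Pearson interval 1.45% to 4.07%) and 43 of 117 in NAPH (36.8%, 28.0% to 46.2%), a ratio of 14.6. Gated club cells as a whole went the other way, from 19.2% of all Control barcodes to 3.18% of all NAPH barcodes. As a share of all barcodes the Upk3a-positive club cells therefore differed by less, at 0.485% (0.278% to 0.787%) in Control and 1.17% (0.846% to 1.57%) in NAPH, a ratio of 2.41. With the gates left aside, barcodes of at least 2 Upk3a UMIs were 0.485% of Control and 2.71% of NAPH, a ratio of 5.59. Cells with at least 10 Upk3a UMIs numbered 2 of 634 in Control and 21 of 117 in NAPH. Shares of barcodes depend on the sort and on which other cells were captured, and the counts of club cells lost or gained per lung were not measured.

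Outside airway secretory cells few cells held Upk3a UMIs. At least 1 Upk3a UMI was found in 1 of 1798 AT2 cells (alveolar type 2 cells, which make surfactant) of Control and in 31 of 2532 of NAPH (1.22%). Their median depths were 7673.5 and 9565.5 UMIs, below the 27382 and 26634 UMIs of the Upk3a-positive cells of Control and NAPH. Ciliated cells had it in 0 of 192 and 8 of 207 (3.86%) barcodes, and myeloid cells in 0 of 381 and 8 of 432 (1.85%).

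**Figure D1:**
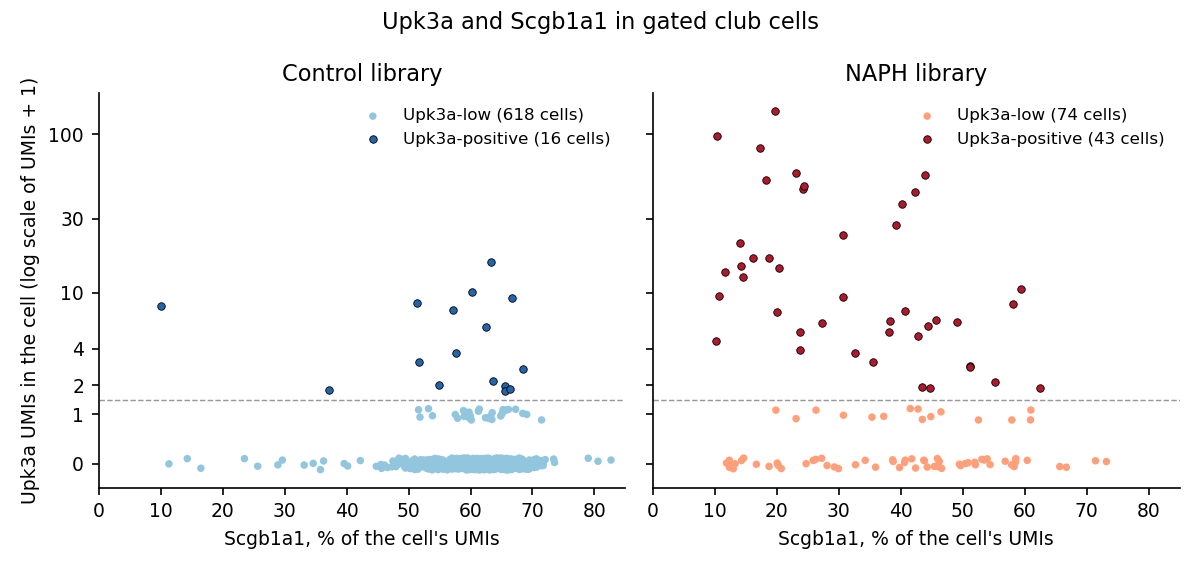
Upk3a UMIs per cell (vertical axis, log scale of UMIs plus 1, with a small vertical scatter so that points separate) against Scgb1a1 as a percentage of the cell's UMIs, for the 634 gated club cells of Control and the 117 of NAPH; the dashed line is the threshold of 2 UMIs. The Control members lie between 2 and 16 Upk3a UMIs, while the NAPH members reach 133 UMIs, with Scgb1a1 from 10.1% to 62.5% of their UMIs.

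The gates removed Upk3a-positive barcodes from NAPH and none from Control. All 16 Control barcodes with at least 2 Upk3a UMIs passed every gate. In NAPH 100 barcodes had at least 2, and 57 of them failed a gate. Scgb1a1 was too low in 25, the goblet genes Scgb3a1 and Bpifb1 were too high in 27, Sftpc was too high in 4, the ciliated genes in 3 and the cell cycle genes in 6, with 7 failing 2 or more gates. The members nearest to the Scgb1a1 threshold had 1008.7 per 10000 in Control and 1011.27 in NAPH, and the nearest barcode outside it had 826.883. For the goblet genes the nearest values inside and outside were 138.367 and 150.778.

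The label under which these cells were selected names them variant club cells with the markers Spink5, Chia1, Retnla and Scgb3a2 beside Upk3a. The data go against part of that label. Scgb3a2 was present in all 59 cells. In the 16 Control members Spink5, a protease inhibitor, had 2 UMIs in 1 cell, and Chia1, an acidic chitinase, had 41 UMIs in 4 cells. Retnla, a resistin-like secreted protein of type 2 immune responses, had 147 UMIs in 12 of the Control members. In NAPH these 3 genes were also abundant in the Upk3a-low cells. Cyp2f2 was found in all 59 members, from 21.5 to 62.5 per 10000 in Control and from 7.78 to 122 in NAPH. The cells are therefore called by their rule, and the name variant is not used for them.

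Levels below are UMIs summed over the cells of a group, per 1000000 UMIs other than Scgb1a1, and a ratio compares 2 such levels of the same gene. Scgb1a1 was left out of the total because it alone took 59.5% of the UMIs of the Control members and 34.6% of those of the NAPH members. In the Upk3a-low cells it took 61.5% and 41.3%. In NAPH the level of Scgb3a2, a secretoglobin of distal airway, was 68027 in the Upk3a-positive cells and 43306 in the Upk3a-low cells (ratio 1.57, 1.55 to 1.59). Per cell, the lowest, median and highest Scgb3a2 values were 51.3, 430.0 and 1062 per 10000 in the members against 0.741, 186 and 890 in the Upk3a-low cells, so the ranges overlapped while the members lacked cells near 0. In Control Scgb3a2 was at 35239 and 30499 (ratio 1.16, 1.13 to 1.18), and the ratio was 0.961 without the goblet gate.

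Spink5 in NAPH stood at 369 in Upk3a-positive and 200.3 in Upk3a-low cells (ratio 1.84, 1.51 to 2.25), with UMIs in 30 of 43 and 34 of 74 cells. When every cell was thinned to 3500 UMIs and the groups were chosen anew by 1 Upk3a UMI, this ratio was 1.02. With both groups held to at least 2000 Scgb1a1 UMIs per 10000, which left 30 members and 63 Upk3a-low cells, it was 1.28. With the members kept as they were and only the reading of Spink5 thinned, 46.5% of members and 25.7% of Upk3a-low cells had a Spink5 UMI, against 4.5% of AT2 cells. Chia1 went the other way, at 1242 and 2478 (ratio 0.501, 0.462 to 0.543), and so did Retnla, at 15761 and 23211 (ratio 0.679, 0.663 to 0.695). Read after the same thinning, Chia1 was found in 44.2% of members, 58.1% of Upk3a-low cells and 39.6% of AT2 cells. The Retnla ratio ranged from 0.626 to 1.68 over the alternative settings, and 1 Upk3a-low cell held 7290 of the 19468 Retnla UMIs of its group.

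**Figure D2:**
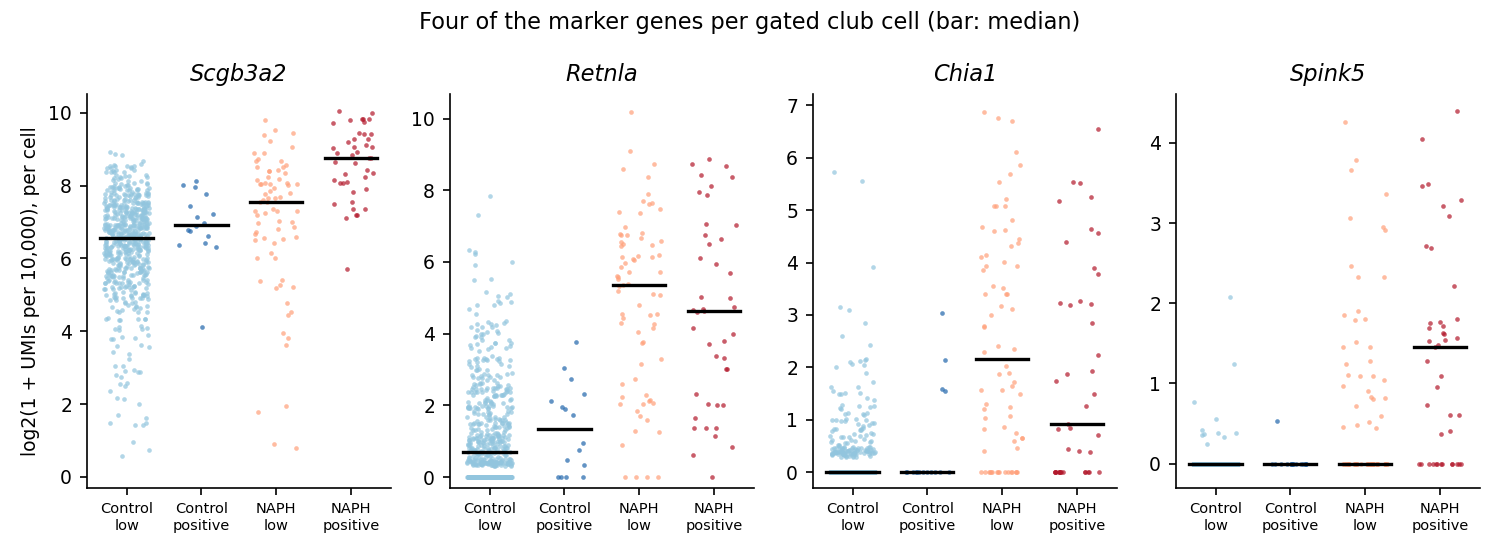
Scgb3a2, Retnla, Chia1 and Spink5 in each gated club cell, as log2 of 1 plus UMIs per 10000, in the 618 Upk3a-low and 16 Upk3a-positive cells of Control and the 74 and 43 of NAPH; each point is a cell and each bar a median. Retnla, Chia1 and Spink5 separate the libraries more than they separate Upk3a-positive from Upk3a-low cells, and Scgb3a2 is highest in the NAPH members.

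Within NAPH most genes stood close to each other in Upk3a-positive and Upk3a-low cells. Of 3072 genes with at least 50 UMIs over both groups, 28 (0.911%) were at least 2 times higher in the Upk3a-positive cells and 37 (1.2%) at least 2 times lower, together 65 (2.12%), and 87.3% lay within 1.5 times. Of these 65, 39 reached 50 UMIs only through the group in which they were higher, so they could not have been listed without a difference. With Scgb1a1 kept in the total the split was 63 higher and 22 lower, after a shift of every log2 ratio by 0.16. Without the barcodes of the highest doublet scores 62 genes differed, and 58 of the 65 were among them. The median log2 ratio of all genes compared was 0.05. As both groups come from 1 library and Upk3a chose the cells, these are counts of sizes with no test.

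In NAPH the members were deeper than the cells they are set against, and in Control, at 27382 against 30471.5 UMIs, they were shallower. Median UMIs per cell were 26634 (4790 to 38460) in the NAPH members and 17535.5 in the Upk3a-low NAPH cells, and the median numbers of genes were 3278 and 2608.5. The median mitochondrial share was 2.07% and 2.90%. Malat1, a nuclear long noncoding RNA, had a median of 55.2 per 10000 in the members and 122 in the Upk3a-low cells, and a level of 10345 against 20918 (ratio 0.495, 0.481 to 0.508). With cells of at least 10000 UMIs only, 61 genes differed at least 2 times and 47 of the 65 were among them. The part of depth and of Malat1-rich cells in the other ratios was not tested.

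Bpifa1 had the highest ratio in NAPH after Upk3a itself, and it rested on few cells. Bpifa1 encodes an abundant secreted airway defence protein of the upper airway. It had 1318 UMIs in the Upk3a-positive cells and 91 in the Upk3a-low cells (levels 1905 and 108, ratio 17.6, 14.2 to 22). The top 3 members held 763, 452 and 75 of these UMIs, and 21 of 43 members had any. With both groups held to at least 2000 Scgb1a1 UMIs per 10000 the ratio was 0.737. Bpifb1, its relative and a gate gene, was 5.05 times higher (3.81 to 6.77) at a level within reach of free RNA, which means under 0.2 times its level in AT2, ciliated, goblet-gate or myeloid cells of the same library.

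Msln encodes mesothelin, a surface protein of mesothelium that some airway secretory cells also carry. It had 246 UMIs in 10 of 43 members and 55 in 17 of 74 Upk3a-low cells (levels 356 and 65.6, ratio 5.42, 4.03 to 7.40), and 104 of the 246 came from 1 cell. Cxcl5, a chemokine that draws neutrophils, stood at 186 and 42.9 (ratio 4.34, 2.98 to 6.47), with 78 of its 129 UMIs in 1 member. Both ratios were smaller, 1.69 and 1.77, with members and Upk3a-low cells held to at least 2000 Scgb1a1 UMIs per 10000. Msln and Cxcl5 were therefore high in a minority of the members.

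Ifitm1 and Ifitm3, membrane proteins that restrict virus entry, were higher in the members by 3.86 times (2.66 to 5.72) and 1.91 times (1.62 to 2.25). Ifitm3 was detected in 97.7% of the members and 78.4% of the Upk3a-low cells. Ifitm1 was 1.38 times higher when the goblet gate was not applied. The interferon-induced gene Ifi27 stood at 106 and 46.5 (ratio 2.27, 1.52 to 3.44) and was seen in 67.4% and 32.4% of cells. Of the list of interferon-response genes only 3 of 24 could be compared, and the other 2, Isg20 and Bst2, had ratios of 1.06 and 1.18. Anxa1, a phospholipid-binding protein that limits inflammation, was at 658 and 354 (ratio 1.86, 1.6 to 2.16).

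Wfdc3, a protein of the whey acidic protein family of protease inhibitors, had 183 UMIs in 31 of 43 members and 102 in 28 of 74 Upk3a-low cells (levels 265 and 122, ratio 2.18, 1.70 to 2.80). Per cell the lowest, median and highest values were 0, 1.31 and 13.9 per 10000 in the members and 0, 0 and 7.46 in the Upk3a-low cells. It was above 1.5 times under all 15 alternative settings, from 1.76 to 3.84. Ctsl, a lysosomal protease, was at 113 and 59.6 (ratio 1.89, 1.31 to 2.75). The list of protease inhibitors as a whole did not stand apart: 10 of 21 were compared, 7 above and 3 below a ratio of 1, with a median log2 ratio of 0.13 and none past 2 times.

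Enzymes that detoxify foreign compounds were, as a list, mostly above a ratio of 1 in the NAPH members. Of the 40 phase II and other xenobiotic enzymes 23 were compared, 20 were above 1 and 3 below, 2 were at least 2 times higher and none at least 2 times lower, beside 0.911% and 1.2% of all genes. Their median log2 ratio was 0.24 against 0.05 for all genes compared. In Control 32 of the list were compared, 12 above and 20 below 1, with 1 higher and 3 lower by 2 times and a median of -0.10 against 0.06 for all genes. The 2 were Sult1d1, a sulfotransferase (levels 163 and 38.2, ratio 4.28, 2.87 to 6.55), and Pon1, a paraoxonase that hydrolyses lactones and organophosphates (272 and 91.8, ratio 2.96, 2.26 to 3.91). Mgst1, a membrane-bound glutathione transferase, was at 5515 and 3493 (ratio 1.58, 1.5 to 1.66), and Gsto1, a glutathione transferase of the omega class, at 2326 and 1427 (ratio 1.63, 1.51 to 1.76). Aldh3a1, an aldehyde dehydrogenase, was at 103 and 63.2 (ratio 1.62, 1.12 to 2.36). Sult1d1 came from 7 members only and was 1.14 times higher when the goblet gate was not applied. Pon1 was 1.52 times higher after thinning.

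The genes of cytochrome P450 metabolism were not higher with them. Of 15 on the list 5 were compared, with 4 below and 1 above a ratio of 1 and a median log2 ratio of -0.18. Cyp2f2 was at 5488 in the members and 6237 in the Upk3a-low cells (ratio 0.880, 0.844 to 0.918), and this ratio stayed between 0.794 and 0.981 under the alternatives. Cyp4b1 was at 198 and 225 (ratio 0.879, 0.700 to 1.10). Cyp2b10, with 10 and 52 UMIs, was the 1 gene of the list past 2 times (ratio 0.233, 0.106 to 0.464), and it reached 50 UMIs only through the Upk3a-low cells. Por, the reductase that feeds electrons to these enzymes, was the 1 above 1, at 658 and 501 (ratio 1.31, 1.15 to 1.5).

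Genes of oxidative-stress defence under NRF2 did not stand apart as a list, with 15 of 21 compared, 10 above and 5 below 1, none past 2 times and a median log2 ratio of 0.08. Gclc, the catalytic subunit of the enzyme that limits glutathione synthesis, was the lowest of them at 205 and 403 (ratio 0.509, 0.416 to 0.622). Pir, an iron-binding nuclear protein that is not on that list, was at 126 and 44.1 (ratio 2.85, 1.92 to 4.31), and its ratio was 1.10 after thinning.

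The endoplasmic reticulum genes of the unfolded protein response leaned towards the members, with 16 of 21 compared, 13 above and 3 below 1 and a median log2 ratio of 0.23. Dnajb9, a chaperone of that compartment, was the 1 past 2 times (59.3 and 27.4, ratio 2.16, 1.27 to 3.77), and it reached 50 UMIs only through the members. Xbp1, a transcription factor of secretory cells, was at 228 and 125 (ratio 1.82, 1.42 to 2.36). The housekeeping genes of the respiratory chain served as a contrast: all 30 were compared, none passed 2 times, and their median log2 ratio was 0.05, the same as for all genes.

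The 5 keratins compared were all above 1, with a median log2 ratio of 0.50. Krt8 was at 736 and 520 (ratio 1.42, 1.24 to 1.61), Krt19 at 1009 and 675 (ratio 1.5, 1.34 to 1.67) and Krt23 at 69.4 and 29.8 (ratio 2.33, 1.41 to 3.94). Krt23 reached the minimum number of UMIs only through the members, so it could not have been listed without a difference. Of 24 genes known from transitional epithelial cells of the injured lung 16 were compared, 14 above and 2 below 1, none past 2 times, with a median log2 ratio of 0.28. Sfn, a cell cycle checkpoint protein of the 14-3-3 family, was at 226 and 123 (ratio 1.84, 1.42 to 2.38). Cldn4, a tight junction protein, was at 49.2 and 25 (ratio 1.96, 1.11 to 3.56). S100a6 and Cdkn1a were the 2 below 1, S100a6 at 551 and 1010 (ratio 0.545, 0.482 to 0.616), a level within reach of free RNA.

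The surfactant and lamellar body genes compared had ratios below 1 in the NAPH members. Of 15 genes 14 were compared, all 14 below 1, 3 of them at least 2 times lower and 11 by less, beside 1.2% of all genes that were at least 2 times lower. Their median log2 ratio was -0.52. Slc34a2, a phosphate transporter of AT2 cells, was at 338 and 756 (ratio 0.448, 0.384 to 0.521), Napsa, a protease that processes surfactant proteins, at 94.0 and 232 (ratio 0.404, 0.300 to 0.538), and Abca3, the lipid pump of lamellar bodies, at 106 and 213 (ratio 0.494, 0.371 to 0.653). For 8 of the 14 the level was within reach of free RNA. The 8 AT2 markers together stood at 26541 in the members and 35717 in the Upk3a-low cells, all 8 of them detected in both. Cldn18, a claudin of alveolar cells, was at 44.8 and 110 (ratio 0.409, 0.263 to 0.620). Per 10000 UMIs, Sftpc reached 65.8 in the members and 425 in the Upk3a-low cells. With Sftpc below 100 all 43 members and 63 of the 74 Upk3a-low cells were left. Under that setting 48 of the 65 genes still differed at least 2 times in the same direction. How far RNA of AT2 cells accounts for the difference was not tested.

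Signalling genes were few enough to give in brief. Of 34 growth factors and receptors 9 were compared, 8 below and 1 above 1, with a median log2 ratio of -0.22. Shh, the hedgehog ligand of lung epithelium, was at 31.8 and 65.6 (ratio 0.485, 0.282 to 0.808) and Bmp3, a ligand of the BMP family, at 21.7 and 48.9 (ratio 0.444, 0.228 to 0.819), and both reached 50 UMIs only through the Upk3a-low cells. The Notch pathway, which sets club against ciliated fate, had 4 of 19 genes compared, 2 on either side. Nrarp, a Notch target and feedback inhibitor, was at 127 and 82.3 (ratio 1.55, 1.12 to 2.15) and Hes1, a Notch-driven repressor, at 665 and 554 (ratio 1.20, 1.05 to 1.37). Foxa2, a transcription factor of airway and alveolar epithelium, was at 50.6 and 101 (ratio 0.499, 0.327 to 0.748).

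The remaining genes at the low end were spread over functions. Plxnb2, a semaphorin receptor, had a ratio of 0.483 (0.328 to 0.699), Igfbp6, a binding protein of insulin-like growth factor, 0.50 (0.337 to 0.730), and Retnlg, a relative of Retnla, 0.528 (0.349 to 0.785), a value that ranged from 0.358 to 2.10 over the alternative settings. Tgoln1, Clic5, Car8, Scgb1c1, Stmn1 and Bola2 lay between 0.530 and 0.616. Gp2, a glycoprotein receptor for bacteria, had no UMI in the members and 158 in the Upk3a-low cells. Against a floor of 3 counts over the group the ratio is at most 0.0230, but 155 of the 158 UMIs came from 1 cell.

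**Figure D3:**
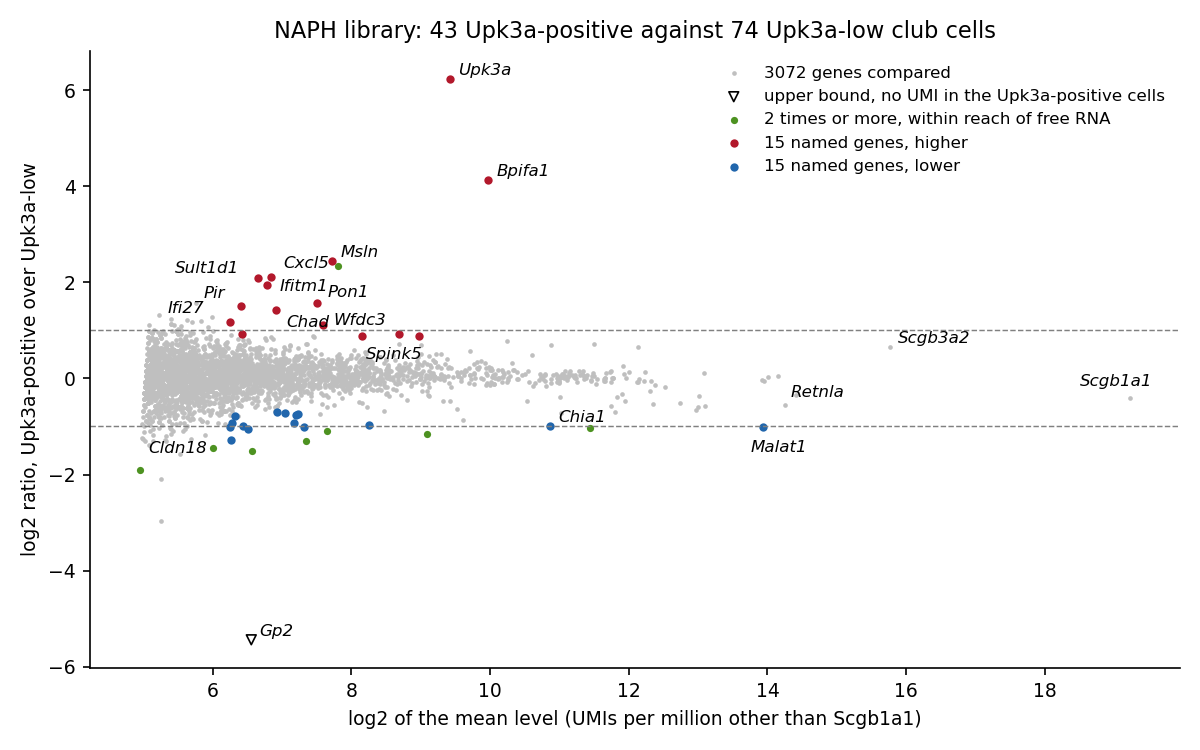
Log2 ratio of Upk3a-positive over Upk3a-low cells in NAPH (vertical axis) against log2 of the mean of both levels (horizontal axis) for the 3072 genes compared; dashed lines mark 2 times, red and blue points are the 15 highest and 15 lowest genes named by rule, green points are genes past 2 times but within reach of free RNA, and the open triangle is an upper bound. Upk3a and Bpifa1 stand far above the rest, and 87.3% of genes lie within 1.5 times.

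Chad encodes chondroadherin, a small matrix protein. It was at 176 in the NAPH members and 65.6 in the Upk3a-low cells (ratio 2.69, 1.94 to 3.77), in 34 of 43 and 30 of 74 cells. When cells with high Scgb3a1 and Bpifb1 were let in, the ratio turned to 0.666. Under that setting 20 of the 65 genes still differed at least 2 times in the same direction, so many of these differences depend on the goblet gate. The goblet markers themselves stood at 4580 in the NAPH members and 2765 in the Upk3a-low cells, and Scgb3a1 at 3617 and 2201 (ratio 1.64, 1.55 to 1.75), a level within reach of free RNA.

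Pir, Sult1d1, Chad and Pon1 were lower in the Upk3a-low NAPH cells than in the other 3 groups of club cells. Levels are given in the order NAPH members, Upk3a-low NAPH cells, Control members and Upk3a-low Control cells. Pir was at 126, 44.1, 117 and 138, and Sult1d1 at 163, 38.2, 123 and 116. Chad was at 176, 65.6, 257 and 213. Pon1 was at 272, 91.8, 497 and 789, so its level in the NAPH members was between those of the other NAPH cells and Control. These 4 genes were picked after the values were seen, and NAPH against Control is 1 library against 1.

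**Figure D4:**
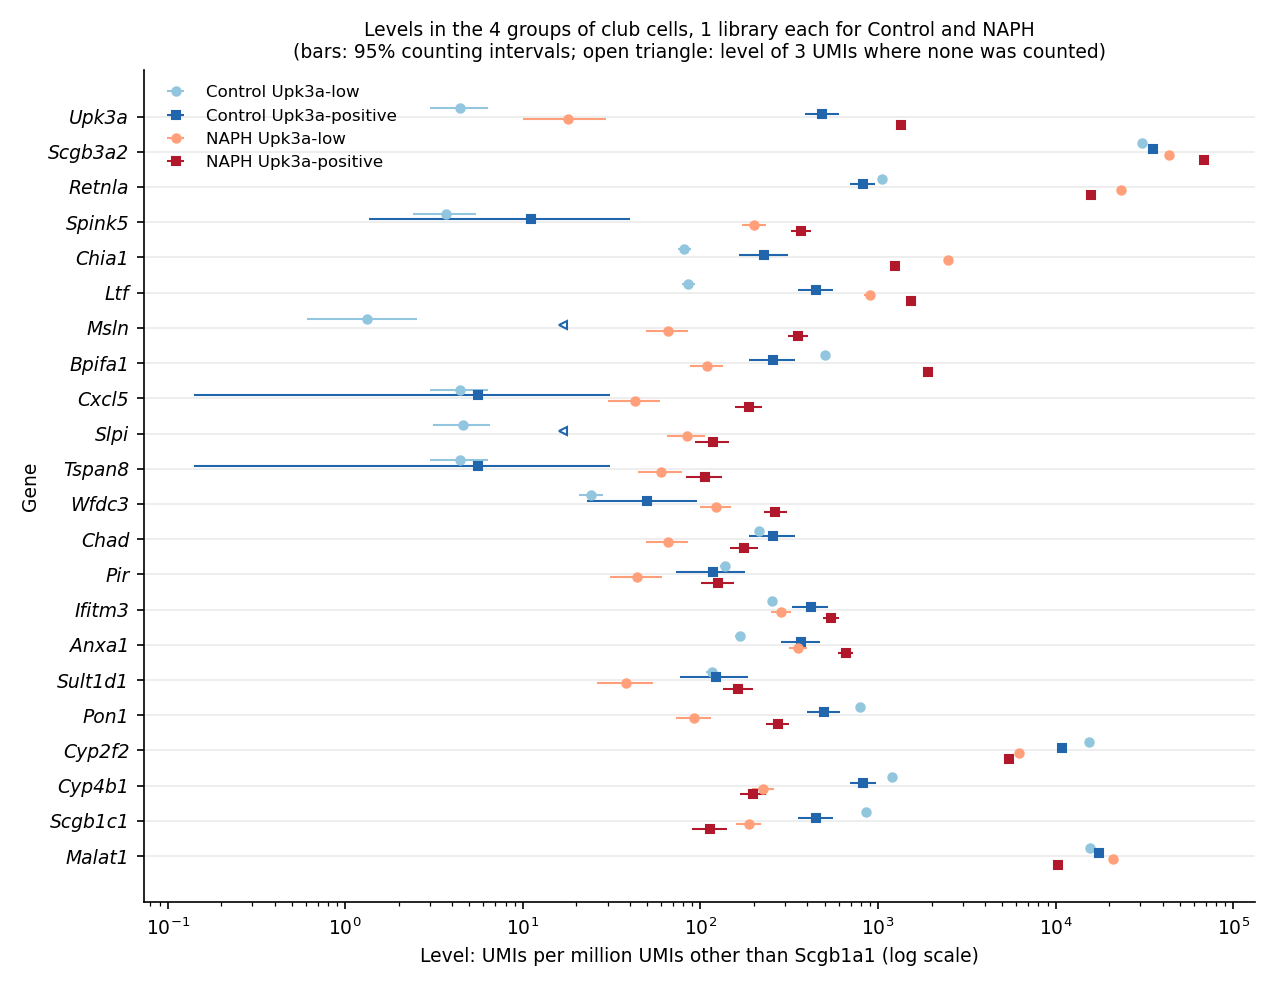
Levels of 22 genes in the 4 groups of club cells, as UMIs per 1000000 UMIs other than Scgb1a1 on a log axis, with bars for the 95% counting interval and open triangles at the level of 3 UMIs where none was counted. Squares (Upk3a-positive) and circles (Upk3a-low) of one library lie near each other for Retnla, Cyp2f2 and Cyp4b1, whereas Chad, Pir, Sult1d1 and Pon1 are lowest in the Upk3a-low NAPH cells.

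Of 1943 genes with at least 50 UMIs over both groups, 87 (4.48%) were at least 2 times higher in the NAPH members and 55 (2.83%) at least 2 times lower, together 142 (7.31%). In the Upk3a-low cells of the same libraries 251 of 8172 genes (3.07%) were that much higher and 599 (7.33%) that much lower, together 850 (10.4%), on a larger number of cells. Of the 142 genes 66, and of the 850 genes 396, reached 50 UMIs only through the group in which they were higher. Of the 27 airway secretory and defence products 16 were compared between the members, 10 above and 6 below 1, with 5 at least 2 times higher and none that much lower. In Upk3a-low cells 23 of them were compared, 12 above and 11 below, with 8 higher and 6 lower. The split between higher and lower depended on the scale. With Scgb1a1 kept in the total every log2 ratio moved up by 0.69 and the split was 471 higher and 4 lower, and with TMM scaling it was 145 and 27 after a shift of 0.19.

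Spink5 was at 369 in the NAPH members and 11.2 in the Control members (ratio 33.0, 9.04 to 274), where 2 UMIs were counted, and after thinning, with no Spink5 UMI left in Control, it was at least 1.49-fold higher. In Upk3a-low cells the same comparison gave 54.1 (35.4 to 86.0). Retnla was at 15761 and 821 (ratio 19.2, 16.3 to 22.7), and 21.9 (21.3 to 22.5) in Upk3a-low cells. Chia1 was at 1242 and 229 (ratio 5.42, 3.96 to 7.61), and 30.5 (27.8 to 33.6) in Upk3a-low cells. Spink5, Retnla and Chia1 were thus higher in the NAPH library in both Upk3a-positive and Upk3a-low cells. For Retnla the difference was not limited to club cells. Read after thinning of each cell, it was found in 7.12% of Control and 59.4% of NAPH AT2 cells. The shares were 5.73% and 54.1% in ciliated cells, and 4.20% and 39.6% in myeloid cells. The part of free RNA in these differences was not tested.

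Cxcl5 had 129 UMIs in the NAPH members and 1 in the Control members (ratio 33.4, 5.89 to 1329). Msln had 246 and 0, which is at least 21.2-fold higher against 3 counts over the group, and Slpi, an inhibitor of neutrophil proteases, had 81 and 0, at least 6.99-fold higher. Tspan8, a tetraspanin of epithelial membranes, was 18.9 times higher (3.29 to 756) and Klk13, a secreted kallikrein protease, 9.06 times (2.42 to 76.3), each on 1 or 2 Control UMIs. Without the cell that held most of a gene in each group, no Control UMI was left of Cxcl5, Tspan8, Klk13 or Slpi. Against 3 counts over the group they were then at least 4.30, 5.37, 4.98 and 4.58 times higher, in that order. The bound for Msln was 4.66 with members of at least 2000 Scgb1a1 UMIs per 10000 and 3.11 after thinning. Lcn2, an iron-scavenging defence protein, was at 528 and 61.4 (ratio 8.59, 4.74 to 17.4), within reach of free RNA. Bpifa1 was 7.42 times higher (5.53 to 10.2) and 0.395 times with members of at least 2000 Scgb1a1 UMIs per 10000. Of the 3 chitinase-like and resistin-like genes compared all 3 were at least 2 times higher, and of 9 protease inhibitors 2 were, with a median log2 ratio of 0.85 against -0.02 for all genes. Both of these protease inhibitors, Spink5 and Slpi, reached the minimum number of UMIs only through the NAPH members. So did Cxcl5, Msln, Tspan8 and Klk13. None of these genes could have been listed without a difference.

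Scgb1a1, Scgb1c1 and the P450 genes compared were lower in the NAPH members. Scgb1a1 was at 0.360 times its Control level (0.358 to 0.361) and Scgb1c1, a minor secretoglobin, at 0.252 times (0.182 to 0.349). Cyp2f2 was at 5488 and 10812 (ratio 0.508, 0.480 to 0.536) and Cyp4b1 at 198 and 827 (ratio 0.240, 0.189 to 0.304). All 4 P450 genes compared were below 1, with a median log2 ratio of -0.97, and of 22 phase II and other xenobiotic enzymes 15 were below and 7 above, 2 of them at least 2 times lower, with a median of -0.30. These ratios and medians are on the scale without Scgb1a1, and with Scgb1a1 kept in the total each median would be higher by 0.69. With Scgb1a1 kept in the total, Scgb1a1 was at 0.581 times, Scgb1c1 at 0.408, Cyp2f2 at 0.820 and Cyp4b1 at 0.387. As a share of all UMIs Scgb1a1 was 59.5% in the Control members and 34.6% in the NAPH members. On the main scale, Cyp2f2 in the Upk3a-low cells was at 0.404 times (0.392 to 0.415) and Cyp4b1 at 0.188 times (0.162 to 0.217).

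Scgb3a2 differed in the other direction from Scgb1a1 and Scgb1c1, at 68027 in the NAPH members and 35239 in the Control members (ratio 1.93, 1.88 to 1.98). Npw, a neuropeptide, was at 49.2 and 140 (ratio 0.352, 0.204 to 0.616), Acsl1, an enzyme that activates fatty acids, at 41.9 and 117 (ratio 0.357, 0.197 to 0.659), and Enah, an actin regulator, at 65.1 and 173 (ratio 0.376, 0.233 to 0.614). Khdrbs1, an RNA-binding protein, was at 54.9 and 145 (ratio 0.378, 0.224 to 0.649). Krt15, a keratin of basal cells, had 34 UMIs in 5 NAPH members and 71 in 2 Control members (ratio 0.124, 0.0798 to 0.189), and 62 of the 71 were in 1 cell. After thinning the ratios of Npw, Khdrbs1 and Krt15 were above 1, at 1.26, 1.43 and 2.15. Npw, Acsl1, Khdrbs1 and Krt15 reached the minimum number of UMIs only through the Control members. Those genes could not have been listed without a difference.

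The 16 Control members allow little detail. Of 7913 genes compared with the 618 Upk3a-low Control cells, 582 (7.35%) were at least 2 times higher and 666 (8.42%) at least 2 times lower, but the counting interval lay wholly above 1 for 154 of the former and wholly below 1 for 38 of the latter. Together they were 1248 genes (15.8%), a share that rests on 16 cells. Of the 1248 genes, 571 reached the minimum number of UMIs only through the group in which they were higher. Those 571 could not have been listed without a difference. With TMM scaling the split was 329 higher and 916 lower, and with RLE scaling 356 and 889. After Upk3a the highest was Krt15 (ratio 32.3, 23.2 to 44.8), from the cell just named. S100a6 was 5.88 times higher (4.82 to 7.13), with 85 of 122 UMIs in 1 cell, Ltf, the iron-binding lactotransferrin, 5.23 times (4.09 to 6.62), with 64 of 80 in 1 cell, and Nfkbia, an inhibitor of NF-kappaB, 3.32 times (2.52 to 4.30), with 38 of 62 in 1 cell. Chia1 was 2.82 times higher (2.0 to 3.88), from 4 cells. After thinning, which chose 11 Control cells anew by 1 Upk3a UMI and left 623 others, S100a6 was at 0.919 and Ltf at 0.284.

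Some Control differences were spread over more cells. Khdrbs1 was at 145 in the Control members and 48.4 in the Upk3a-low cells (ratio 3.0, 1.93 to 4.47), with a UMI in 81.2% and 38.0% of cells. Over the alternative settings this ratio ranged from 1.09 to 3.16. Anxa1 had UMIs in all 16 members, at 369 and 166 (ratio 2.22, 1.70 to 2.84). Ifitm3 stood at 419 and 253 (ratio 1.66, 1.30 to 2.09) and Ifi27 at 89.4 and 44.1 (ratio 2.02, 1.14 to 3.34), and Gsto1 at 1519 and 858 (ratio 1.77, 1.56 to 2.0). These 4, Anxa1, Ifitm3, Ifi27 and Gsto1, were also higher in the NAPH members than in the Upk3a-low NAPH cells, an overlap picked out after the values were seen. Cyp2f2 was at 10812 and 15456 (ratio 0.700, 0.668 to 0.732) and Aldh3a1 at 83.8 and 194 (ratio 0.432, 0.241 to 0.714). The lowest ratios of Control also took in Asgr1, Gdpd2, Neat1, Pgd, Cdc37 and Snhg9, from 0.406 to 0.508. After thinning Asgr1, Aldh3a1 and Neat1 were above 1, at 2.02, 1.97 and 1.49.

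The NAPH members were not alike. The 7 of the 43 with at least 4 Msln UMIs were set beside the 14 with at least 10 Chia1 UMIs and the 22 with neither. The sets do not share a cell and were chosen after the values were seen, so they carry no test. Scgb1a1 took 18.1% of the UMIs in the Msln set, 35% in the Chia1 set and 38.9% in the rest. Bpifa1 had 1291, 10 and 17 UMIs in these sets, and Ltf 1013, 1 and 51. Sult1d1 had 112 of its 113 UMIs in the Msln set, in 6 of the 7 cells, and Ifitm1 had 79, 1 and 41. Krt4, a keratin of stratified airway lining, had 18, 0 and 1. Nearly all UMIs of Bpifa1 and Sult1d1 in the members thus came from these 7 cells.

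Wfdc3, Spink5, Sftpb and Cldn10 were higher in the Chia1 set and in the cells of neither set than in the Msln set. Wfdc3 had 0 UMIs in the 7 Msln cells, 81 in 13 of 14 Chia1 cells and 102 in 18 of the 22 others. Spink5 had 13, 137 and 105 UMIs, in 1, 12 and 17 cells. Ager, a receptor abundant in alveolar type 1 cells, was at 822, 2048 and 948, and the surfactant gene Sftpb at 1388, 7976 and 8917. Cldn10, a claudin of club cells, was at 234, 1024 and 899, and Cd74, the class II invariant chain, at 166, 1426 and 871. Upk3a stood at 2429, 1411 and 923, and was thus present in every set. Cyp2f2 was at 9926, 4660 and 4314.

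Cells past the same Msln and Chia1 thresholds also occurred among the Upk3a-low cells. Of the 74 Upk3a-low NAPH cells 4 had at least 4 Msln UMIs and 29 had at least 10 Chia1 UMIs with less Msln than that. Ltf was at 7238 in these 4 cells and at 48.0 in the 29, and Sult1d1 had 26 and 0 UMIs. In the 4 cells 597 of the 670 Ltf UMIs came from 1 cell. The 4 cells were unlike the 7 Msln members in other genes. They had 4 Bpifa1 UMIs against 1291 and 0 Krt4 UMIs against 18, and Sftpb was at 7616 against 1388. Wfdc3 differed from the pattern of the members, with 28 UMIs in 2 of the 4 Msln cells and 14 in 10 of the 29 Chia1 cells. Among the Control members 0 had a Msln UMI. One Control member, with Scgb1a1 at 10.1% of its UMIs, held 62 of the 71 Krt15 UMIs, 27 of the 46 Bpifa1 UMIs and 11 of the 22 Sult1d1 UMIs.

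**Figure D5:**
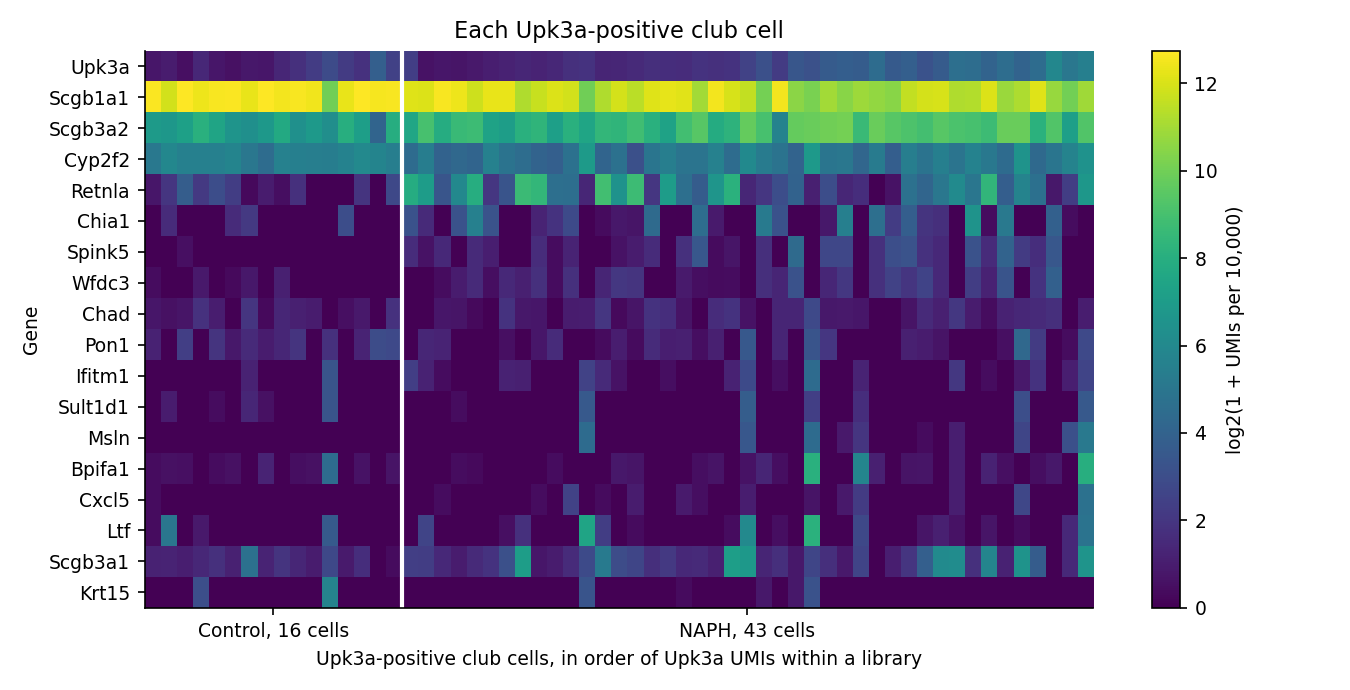
Each column is 1 of the 59 Upk3a-positive club cells, 16 of Control and 43 of NAPH, in order of Upk3a UMIs within a library; each row is a gene, coloured by log2 of 1 plus UMIs per 10000. Msln, Bpifa1, Ltf, Sult1d1 and Ifitm1 light up together in a few columns, 1 of them in Control without Msln, and Chia1, Spink5 and Wfdc3 are low or absent in most of these.

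Across levels of Upk3a the NAPH cells did not fall on 1 gradient. In groups of 0, 1, 2 or 3, 4 to 9, 10 to 29 and 30 or more Upk3a UMIs, with 59, 15, 7, 15, 11 and 10 cells, Scgb1a1 took 41.4%, 41.1%, 48.6%, 36.0%, 26.9% and 27.5% of UMIs. Scgb3a2 was at 37968 in the first of these groups and at 83171 and 78869 in the last 2. Spink5 stayed between 176 and 214 up to 9 Upk3a UMIs and was at 611 and 510 above. Retnla had no order, at 14153, 49303, 18415, 26007, 1164 and 10171. Their median depths were 16480, 17887, 27775, 28852, 13924 and 27443.5 UMIs, so the groups are not matched for depth.

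The genes whose level per cell went most closely with Upk3a over the 117 gated NAPH cells were ranked by Pearson r of log values among 7305 genes. The first 10 were Mgst1 (r = 0.48), Syngr1 (0.47), Dad1 (0.46), Scgb3a2 (0.45), Wfdc3 (0.45), Tmem147 (0.43), Ifitm3 (0.43), Chad (0.42), Rab21 (0.42) and Csad (0.41). Spink5 had r = 0.34, Chia1 -0.08 and Retnla -0.18, and Scgb1a1 was the least like, with -0.36. All cells share 1 library, and the log2 total of UMIs had r = 0.14 with Upk3a, and r = -0.39 among the 43 members alone. These values are descriptions without a p.

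Markers of other cell types were low in the NAPH members apart from those of alveolar and goblet cells and the class II gene Cd74. The 6 basal markers together stood at 79.5 in the members and 10.7 in the Upk3a-low cells, with Krt5 and Krt14 at 0 in both, and 31 of the 34 Krt15 UMIs came from 2 of the Msln cells. The 4 hillock markers stood at 241 and 176. The 8 ciliated markers were at 366 and 430, the 6 AT1 markers at 2417 and 2716 with Rtkn2 at 0 in the members, the 7 macrophage markers at 20.2 and 14.3 with Marco at 0, and the 4 of T and NK cells at 0 in both groups. No member had a barcode that occurs in both libraries, of which there are 14.

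Upk3a was also found in NAPH cells that failed the goblet gate. At least 2 UMIs were counted in 24 of 62 such cells that passed the other gates (38.7%, 26.6% to 51.9%). In Control 0 of 139 such cells had them, where 3 cells would be 2.16% and the exact interval reaches 2.62%. Set against the 43 members, 33 of 2249 genes (1.47%) were at least 2 times higher in the 24 cells and 127 (5.65%) at least 2 times lower, together 160 (7.11%), on a median log2 ratio of -0.30. Beyond the gate genes, the 24 cells had more Muc5b, a gel-forming mucin (ratio 18.4, 12.9 to 27.0), Bpifa1 (6.15, 5.78 to 6.54) and Lcn2 (3.96, 3.49 to 4.49). They had less Chia1 (0.0183, 0.00833 to 0.0348), Spink5 (0.0752, 0.0371 to 0.137) and Wfdc3 (0.267, 0.173 to 0.399). Msln was at 618 in them and 356 in the members, with UMIs in 18 of 24 and 10 of 43 cells.

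The 25 Upk3a-positive NAPH barcodes below the Scgb1a1 gate had a median of 89.8 Scgb1a1 UMIs per 10000, from 20.2 to 827, against 3064 in the members. Their median Scgb3a2 was 359 per 10000, from 1.37 to 1238, against 430.0 in the members, and their median Cyp2f2 27.0 against 29. Spink5 was found in 16 of the 25, Chia1 in 17, Msln in 12 and Krt4 in 7. Their medians of Scgb3a2, Cyp2f2 and Spink5 lay inside the range of the members, and that of Scgb1a1 lay below it by the gate.

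Over the whole series the libraries held 41699755 UMIs in Control and 38497783 in NAPH, with medians of 8303.5 and 9417 per barcode. Scgb1a1 made up 31.8% of all Control UMIs and 4.46% of all NAPH UMIs. It took 1.32% of AT2 UMIs in Control and 0.301% in NAPH.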

How the data were processed

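The deposited values are unnormalized UMI counts. The authors used Cell Ranger and mm10, per the submitters' processing notes, which state neither its version nor a rule for calling cells. Per the labels, libraries were made with the 10x Genomics 3' kit from cells isolated by flow cytometry. Unused columns of per-sample values numbered 0.

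The members and the 33 gene lists were chosen with earlier results of these data known. Counts were summed per group and divided by all UMIs other than Scgb1a1. Ratios have exact conditional Poisson intervals and shares exact binomial ones, at 95%. A gene differed at 2 times or more, among genes with at least 50 UMIs over both groups. Without UMIs in a group, 3 counts over the group stood in. Scripts were tested on simulated data. Python 3.11.15, numpy 2.4.6, scipy 1.17.1, pandas 2.3.3, scanpy 1.11.5 (Scrublet), matplotlib 3.10.9, R 4.3.3 and edgeR 4.0.16 (scaling only) were used. Doublets were kept in the main results, since the automatic Scrublet threshold marked 8 barcodes (0.243%) in Control and 6 (0.163%) in NAPH. The position of Upk3a is from GENCODE vM21.

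Genes were named by rule: in NAPH the 15 highest and 15 lowest ratios, and 8 of each in the other comparisons. They had at least 100 UMIs per 1000000 in a group, at least 50 UMIs, and a UMI in at least 10% of the cells of the higher group. Ribosomal, mitochondrial, haemoglobin, sex-linked and predicted genes were skipped, as was any gene below 0.2 times its level in AT2, ciliated, goblet-gate or myeloid cells of that library. The gate genes, the markers, Cyp2f2 and, from each list, at most 3 genes at either end were also named. Other genes named were chosen after their values were seen. Results of some genes under this rule are not reported here.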

Additional observations from a re-analysis of the deposited data

Results flagged for a closer look

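Bpifa1, Chia1, Malat1, Pon1 and S100a6 lay on opposite sides of a ratio of 1 in the 2 libraries when Upk3a-positive were set against Upk3a-low club cells, with both counting intervals clear of 1. The difference between the libraries was not tested, since each group is 1 library. Bpifa1 was at 17.6 in NAPH and 0.512 in Control, where its level was within reach of free RNA and 1534 of the 3388 UMIs of the Upk3a-low cells came from 1 cell. Chia1 was at 0.501 and 2.82, Malat1 at 0.495 and 1.12, Pon1 at 2.96 and 0.630, and S100a6 at 0.545 and 5.88. In Control, Chia1 was found in 4 of 16 members (25%) and 155 of 618 Upk3a-low cells (25.1%). The members with most Chia1 held 16, 13 and 8 of its 41 UMIs there. In S100a6 a single cell held 363 of 847 UMIs of the Upk3a-low NAPH cells and another 85 of 122 UMIs of the Control members.

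In data outside the gated cells, 57 NAPH barcodes held at least 2 Upk3a UMIs, against 0 such barcodes in Control. Of these, 20 failed only the Scgb1a1 gate and 24 only the goblet gate.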

How the results depend on the processing

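No paired analysis was possible because each group is 1 library. The main counts of genes that differed at least 2 times were 65 within NAPH, 1248 within Control and 142 between the members of both libraries. They were 2.12%, 15.8% and 7.31% of the genes compared, and shares in brackets below are of the same kind. They followed the minimum number of UMIs: 409, 2512 and 606 at 20 UMIs, and 12, 188 and 36 at 200. Thinning every cell to 3500 UMIs, with cells chosen anew by 1 Upk3a UMI, gave 18, 476 and 37. The shares of genes compared were then higher than the main ones, at 3.03%, 24.4% and 13.1%. With Upk3a at 1 UMI or more the counts were 512 (6.47%) within Control and 220 (7.44%) between libraries. The shares of gated club cells were then 49.6% in NAPH and 7.26% in Control. With at least 4 UMIs the count was 2403 (30.5%) within Control, and the Control share of gated club cells was 1.26%. The mean over cells gave 142 (4.62%) within NAPH. Between libraries plain CPM gave 475 (24.4%) and no goblet gate 241 (9.31%).

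Ratios of at least 2 times in either direction turned to the other side of 1 in 11 cases. Under thinning these were S100a6 (0.919), Ltf (0.284), Asgr1 (2.02), Aldh3a1 (1.97) and Neat1 (1.49) within Control, and Krt15 (2.15), Npw (1.26) and Khdrbs1 (1.43) between libraries. With Scgb1a1 at 2000 or more, Bpifa1 was at 0.737 within NAPH and 0.395 between libraries. Without the goblet gate Chad was at 0.666 within NAPH. Smaller ratios also crossed 1. Retnla within NAPH was at 1.68 with Upk3a at 1 UMI or more, 1.11 against cells of 0 Upk3a UMIs and 1.31 under thinning, and within Control at 1.92 under thinning. Retnlg was at 2.10 and 1.11 under the first 2 of these, and Stmn1 at 1.01 with Scgb1a1 at 2000 or more. Without the goblet gate Scgb3a2 was at 0.961 and Scgb1a1 at 1.002 within Control. The cause was not tested. Of 510 ratios of the 34 genes followed within NAPH, 406 lay inside the main interval.

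The split into higher and lower was 28 and 37 within NAPH and 63 and 22 with plain CPM. Within Control it was 582 and 666, and 329 and 916 with TMM scaling, which moved every log2 ratio by -0.16. Between libraries it was 87 and 55, and 149 and 27 with RLE scaling.

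Leaving out the cell with most UMIs of a gene, or cells under 10000 UMIs, were alternatives chosen after seeing the data. Ratios of a gene left without UMIs in a group were not computed in some alternatives. The Control members were the smallest group of club cells, and their ratios rest on few counts. Their 16 cells held 179062 UMIs other than Scgb1a1, against 691715 in the 43 NAPH members.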
